A study of Mus musculus with 6 samples.

Results

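The genes described are 9 components of the brain extracellular matrix: the lecticans Ncan, Bcan, Vcan and Acan, the link protein gene Hapln1, the membrane proteoglycan genes Cspg5 and Ptprz1, and the tenascins Tnc and Tnr. They are defined by their names, and the set was chosen with earlier results of these data known. All 9 of 9 were measured, each by 1 probe set with a single gene symbol, among 19926 genes in all. Their RNA was measured in primary astrocytes cultured from C57BL/6J mice and hybridised to Affymetrix Mouse Gene 1.0 ST arrays, with 3 control arrays and 3 arrays of cultures given tumour necrosis factor (TNF, an inflammatory cytokine) at 50 ng/mL, all collected at 24 h. The replicates are numbered 1 to 3 in each group, and the labels give neither the age of the animals, the brain region nor the content of the control medium. Since nothing states whether a replicate is its own culture or animal, the p-values reflect sample-to-sample spread that could be technical. Values are log2 signals and every difference is TNF minus control.

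Lecticans are large chondroitin sulfate proteoglycans whose one end binds the polysaccharide hyaluronan and whose other end binds tenascins. Link proteins clamp the hyaluronan end in place, and tenascin-R crosslinks the lecticans into the dense nets around neurons and the looser matrix around synapses. Astrocytes make much of this matrix, and the chondroitin sulfate proteoglycans of glial scars are known to hold back growing axons.

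The arrays were comparable in level, with medians from 7.59 to 7.65 over the genes tested. Replicate 3 had the highest lower quartiles (6.27 and 6.33 against 6.01 to 6.09) and the lowest upper quartiles. In the sample descriptions the control and TNF arrays of one replicate number share a code whose meaning is not stated. Arrays that share a replicate number deviated together from their group means (correlations of 0.55, 0.65 and 0.75 across genes, which are not independent replicates). A fit with the replicate number as a block is therefore given where it changed a call.

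The members did not move in one direction. Ncan, Bcan and Ptprz1 fell with TNF, at an adjusted p under 0.05 over all genes with limma. Vcan, Cspg5 and Tnc were higher in 3 of 3 pairs of the same number without passing, and passed as higher with the replicate block. Hapln1 was lower in 3 of 3 pairs and passed as lower with the block, while Acan and Tnr passed in neither fit.

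**Figure D1:**
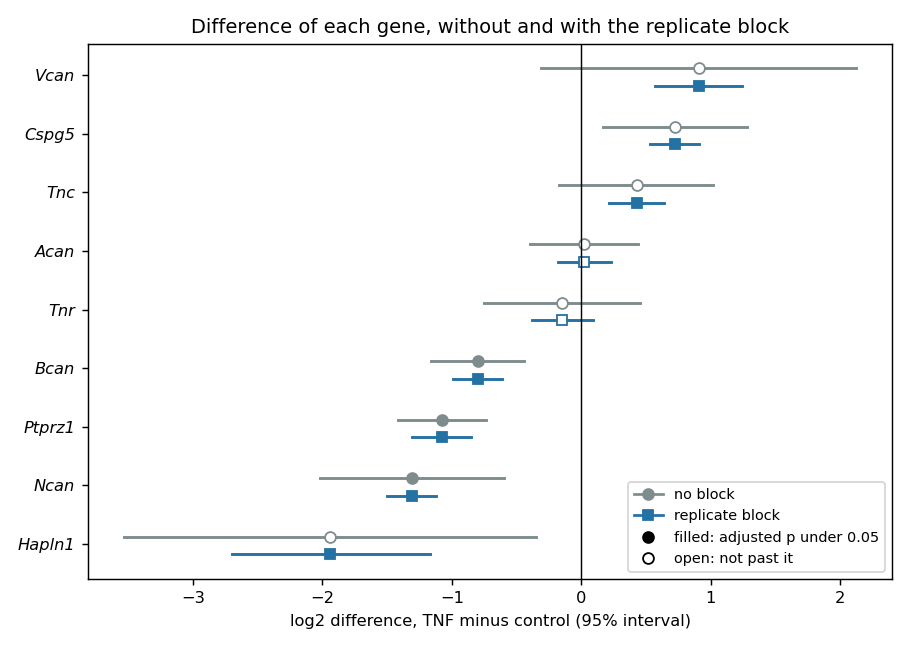
Log2 difference (TNF minus control, horizontal axis) of each gene with its 95% interval, from the limma fit without a block (grey circles) and with the replicate block (blue squares), 3 arrays per group. Filled symbols passed an adjusted p of 0.05. Ncan, Bcan and Ptprz1 are filled in both fits, Hapln1, Vcan, Cspg5 and Tnc with the block alone, and Acan and Tnr in neither.

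In counts, 3 of 9 members fell and 0 rose (limma, adjusted p under 0.05), beside 3.33% of all genes lower and 3.87% higher, 7.20% in either direction. Before adjustment, 4 members were lower and 1 was higher at p under 0.05, beside 18.9% of all genes in either direction. With the block 4 members were lower and 3 higher, beside 11.8% and 9.73% of all genes. The groups did not overlap for 4 members on the lower side and 1 on the higher side, which was true of 11.7% and 12.3% of all genes. All 3 pairs agreed in sign for 7 members, 4 lower and 3 higher, beside 26.9% and 25.7% of all genes. The median difference of the members was -0.15 and that of all genes -0.00. The median absolute difference was 0.80 for the members and 0.13 for all genes. These comparisons with all genes include dim genes. Among the 9963 genes at or above the median signal, fitted alone, 890 were higher and 837 lower. In that fit 3 members were lower and 0 higher.

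Neurocan, the product of Ncan, is a lectican made by astrocytes and neurons that binds neural cell adhesion molecules. Ncan signals were 11.23, 12.17 and 11.83 on control arrays 1, 2 and 3 and 9.90, 10.93 and 10.45 on the TNF arrays with the same numbers. Every TNF array lay below every control array. Ncan fell by 1.31 on the log2 scale (SE 0.31, 2.48-fold lower, n = 3 per group, limma adjusted p = 0.0443). The 3 pairs differed by -1.33, -1.23 and -1.38, an SD of 0.07, while the controls spanned 0.94 log2 units from lowest to highest. With the replicate block the adjusted p was 6e-05. Without the block the call did not hold in 4 of 6 fits that left out 1 array: without control 2 (adjusted p = 0.126), control 3 (0.125), TNF 1 (0.107) or TNF 3 (0.0907). It was also lost without both arrays of replicate 3 (0.234).

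Brevican, the product of Bcan, is the shortest lectican and a main substrate of ADAMTS4 in brain. Bcan signals were 10.12, 10.43 and 10.37 in controls 1 to 3 and 9.23, 9.70 and 9.59 with TNF. The groups did not overlap. Bcan fell by 0.80 (SE 0.15, 1.74-fold lower, n = 3 per group, limma adjusted p = 0.0207), with pair differences of -0.88, -0.73 and -0.78. The adjusted p was 0.00056 with the block. The call was lost without control 2 (adjusted p = 0.0764), control 3 (0.0750), TNF 1 (0.0531) or both arrays of replicate 3 (0.127).

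Ptprz1 encodes a receptor-type tyrosine phosphatase whose shed or spliced extracellular part is the proteoglycan phosphacan. A gene-level probe set does not separate the receptor from phosphacan. Ptprz1 signals were 11.30, 11.29 and 11.73 in controls and 10.24, 10.40 and 10.44 with TNF, again without overlap. Ptprz1 fell by 1.08 (SE 0.15, 2.11-fold lower, n = 3 per group, limma adjusted p = 0.00493). The pair differences were -1.06, -0.89 and -1.29. The call held in 6 of 6 fits without 1 array, with adjusted p from 0.0113 to 0.0210, and without replicate 3 (0.0210).

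**Figure D2:**
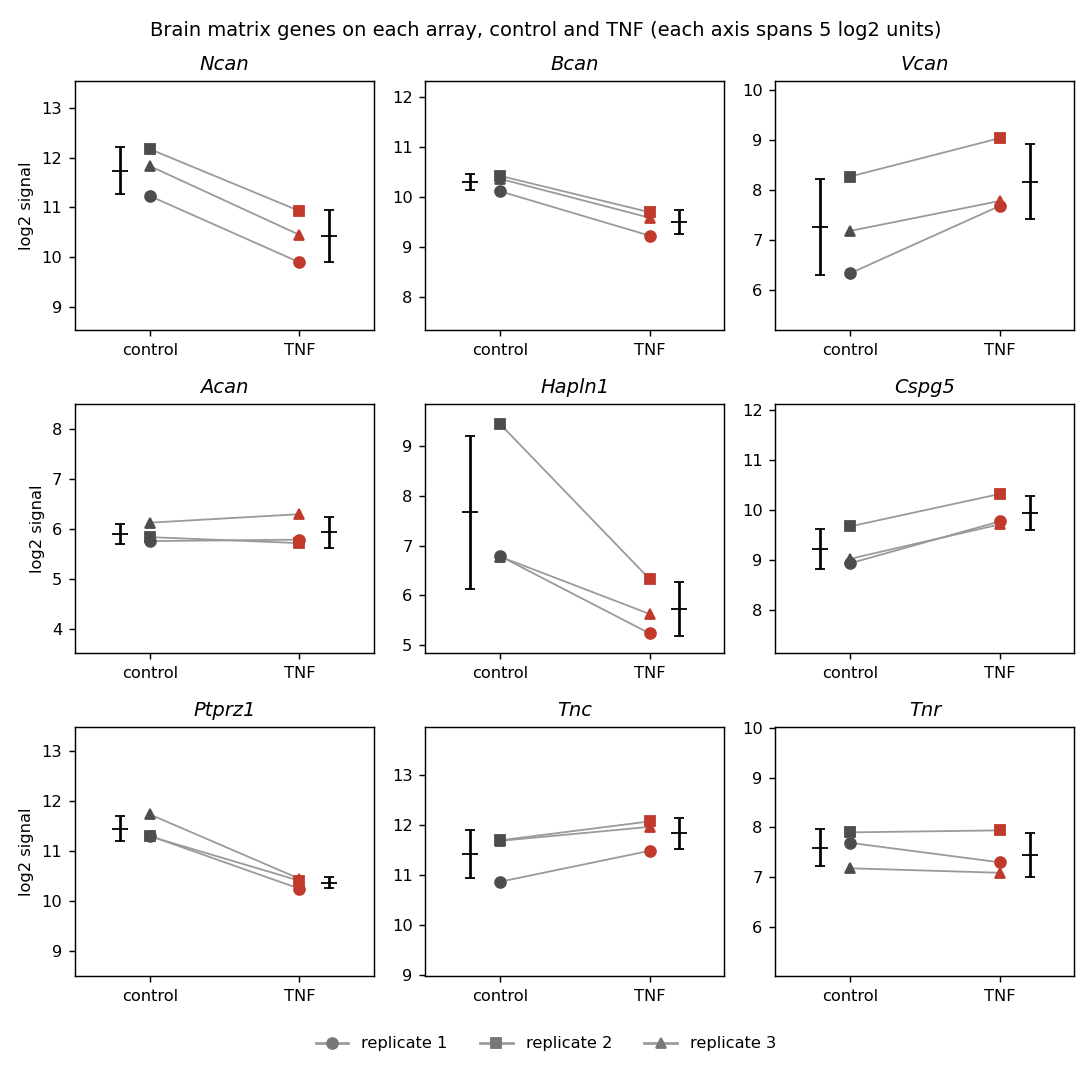
Log2 signal (vertical axis, 5 log2 units in every panel) of each gene on the 3 control arrays (grey) and the 3 TNF arrays (red). Grey lines join arrays of the same replicate number, and black bars are the group mean and SD. The lines of Ncan and Bcan fall in parallel, those of Vcan, Cspg5 and Tnc climb, and control 2 stands high for Hapln1.

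The sequences before the start sites of the 3 genes called lower are shown as a description. Shared regulation was not tested. The 250 bases upstream of the start in RefSeq (GRCm38.p6) are chr8:70120845-70121094 on the minus strand for Ncan, chr3:88000357-88000606 on the minus strand for Bcan and chr6:22875252-22875501 on the plus strand for Ptprz1. They are written 5′ to 3′ along the gene, and capitals mark matches on either strand to the GC box (GGGCGG), the TATA box (TATAAA) or the CCAAT box.
Ncan: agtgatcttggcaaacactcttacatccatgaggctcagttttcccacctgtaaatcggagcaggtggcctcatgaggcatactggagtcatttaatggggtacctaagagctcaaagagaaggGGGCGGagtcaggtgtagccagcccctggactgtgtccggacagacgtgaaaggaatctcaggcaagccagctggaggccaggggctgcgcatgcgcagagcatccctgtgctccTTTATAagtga
Bcan: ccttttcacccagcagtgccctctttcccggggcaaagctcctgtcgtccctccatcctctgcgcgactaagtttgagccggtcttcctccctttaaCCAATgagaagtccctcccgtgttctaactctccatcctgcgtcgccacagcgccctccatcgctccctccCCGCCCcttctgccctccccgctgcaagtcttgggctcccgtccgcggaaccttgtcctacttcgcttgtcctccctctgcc
Ptprz1: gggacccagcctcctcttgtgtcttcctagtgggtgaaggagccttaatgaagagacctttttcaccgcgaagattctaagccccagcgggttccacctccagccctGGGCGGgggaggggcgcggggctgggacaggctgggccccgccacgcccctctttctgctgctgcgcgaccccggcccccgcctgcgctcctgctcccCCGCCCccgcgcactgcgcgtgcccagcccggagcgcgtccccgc
Each of the 3 holds GGGCGG on one strand or the other, and Ptprz1 holds it in 2 places. Ncan alone of these 3 holds TATAAA, on the strand opposite to the gene, and Bcan alone holds CCAAT. The windows differ in base composition, with 54.4% G and C for Ncan, 62.0% for Bcan and 71.6% for Ptprz1, against a median of 52.4% over 32851 promoter windows.

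Hapln1 encodes the hyaluronan and proteoglycan link protein 1, which locks lecticans onto hyaluronan. Hapln1 signals were 6.79, 9.44 and 6.78 in controls and 5.24, 6.33 and 5.63 with TNF. Control 2 lay far above the other controls, yet the groups did not overlap. TNF 1 and TNF 3 lay below 6.16, the lower quartile of all genes. The TNF signals may be near background, so the size of the difference is uncertain. The difference was -1.94 (SE 0.68, 95% interval -3.53 to -0.35, n = 3 per group, limma adjusted p = 0.166) without the block, which did not pass. The pair differences of -1.56, -3.11 and -1.15 were all negative, and with the block Hapln1 passed as lower (adjusted p = 0.00553). Without control 2 the difference was -1.05.

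Versican, the product of Vcan, is a widely expressed lectican of developing tissue and of inflamed matrix. The gene's probe set covers several splice forms together. Vcan signals were 6.33, 8.27 and 7.18 in controls and 7.68, 9.04 and 7.78 with TNF. The groups overlapped, since control 2 exceeded TNF 1 and TNF 3. The difference was 0.91 (SE 0.52, 95% interval -0.31 to 2.12, n = 3 per group, limma adjusted p = 0.447). Within pairs it was 1.35, 0.77 and 0.60, and the block made Vcan pass as higher (adjusted p = 0.00415). Without control 1 the difference was 0.44, without TNF 2 it was 0.47 and without control 2 it was 1.41.

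Hapln1 and Vcan are next to each other among the protein-coding genes of mouse chromosome 13 in RefSeq GRCm38.p6, and their values went in opposite directions. Their upstream sequences are shown for that contrast: chr13:89540386-89540635 on the plus strand for Hapln1 and chr13:89742513-89742762 on the minus strand for Vcan, with capitals as above.
Hapln1: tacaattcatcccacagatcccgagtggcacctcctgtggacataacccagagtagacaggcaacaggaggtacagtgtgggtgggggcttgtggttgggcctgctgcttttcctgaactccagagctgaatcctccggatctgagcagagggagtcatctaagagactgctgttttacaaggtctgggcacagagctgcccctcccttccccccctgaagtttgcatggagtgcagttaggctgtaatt
Vcan: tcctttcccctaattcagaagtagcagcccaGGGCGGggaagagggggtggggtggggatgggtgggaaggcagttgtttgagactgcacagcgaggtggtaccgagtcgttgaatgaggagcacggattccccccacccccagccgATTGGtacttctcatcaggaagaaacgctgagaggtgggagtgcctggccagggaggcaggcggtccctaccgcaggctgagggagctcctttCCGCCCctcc
The Hapln1 window holds none of these 3 motifs. The Vcan window holds GGGCGG in 2 places and CCAAT once, on the opposite strand. The change of Vcan exceeded that of Hapln1 on the same arrays by 2.85 log2 units, and by 1.74 to 3.88 in single pairs. The size of this contrast rests in part on the dim Hapln1 signals with TNF. The pair was chosen after the values were seen, so no test is given.

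Each of the 4 lecticans has a link protein gene as its direct protein-coding neighbour in that annotation: Hapln4 beside Ncan, Hapln2 beside Bcan, Hapln1 beside Vcan and Hapln3 beside Acan. Hapln4, whose product is known from perineuronal nets, had signals of 6.49, 6.99 and 6.81 in controls and 6.76, 7.01 and 6.97 with TNF, a difference of 0.16 (95% interval -0.20 to 0.51, limma adjusted p = 0.748). Hapln2 differed by 0.09 (95% interval -0.32 to 0.50) and Hapln3 by -0.02 (95% interval -0.38 to 0.34), and none of these 3 passed in either fit. Hapln4, Hapln2 and Hapln3 had control means of 6.76, 6.75 and 6.31, below 7.63, the median of all genes. No detection calls were used. A fall as large as that of Ncan (1.31) or Bcan (0.80) may therefore not have been measurable for them. On its other side Bcan has Nes, which encodes the intermediate filament nestin and fell by 0.97 (SE 0.16, n = 3 per group, limma adjusted p = 0.0102). On its other side Acan has Isg20, an interferon-induced exonuclease gene that rose by 4.20 (adjusted p = 4.2e-05), and Ptprz1 has Aass, of lysine breakdown, which fell by 1.35 (adjusted p = 0.000823). These 3 were named because they passed: of 15 measured direct neighbours that are not members, 1 was higher and 2 were lower (20.0%, beside 7.20% of all genes), and the other 12 lay between -0.37 and 0.31. With the block 6 of the 15 passed (40.0%, beside 21.5% of all genes). The calls of Nes, Isg20 and Aass held in 6 of 6 fits without 1 array, and that of Nes was lost without replicate 3 (adjusted p = 0.0548).

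**Figure D3:**
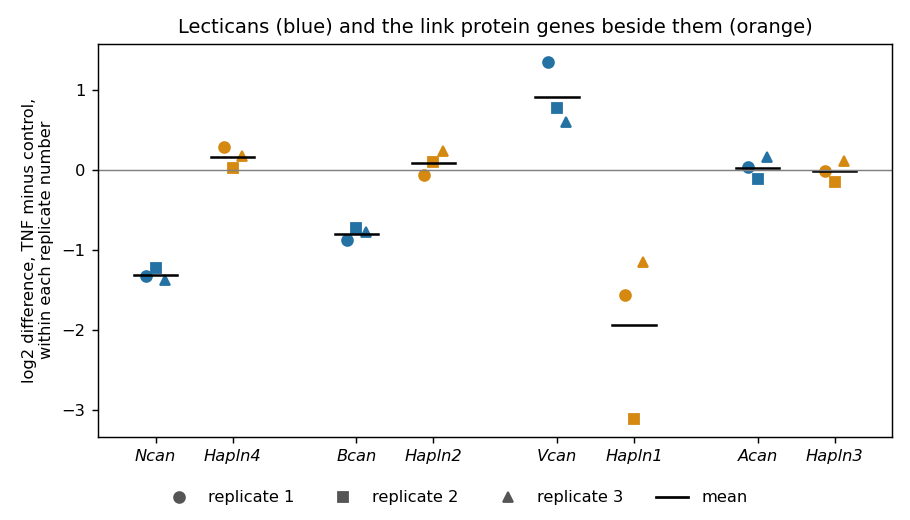
Log2 difference within each replicate number (vertical axis) of the 4 lectican genes (blue) and the link protein genes next to them (orange), with the mean of the 3 pairs as a bar. Vcan lies above 0 and its neighbour Hapln1 below 0 in 3 of 3 pairs, while Hapln4 and Hapln2 lie near 0 beside the lower Ncan and Bcan.

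Cspg5 encodes neuroglycan C, a membrane-spanning chondroitin sulfate proteoglycan of neurons and glia with an EGF-like domain. Cspg5 signals were 8.93, 9.67 and 9.02 in controls and 9.77, 10.32 and 9.71 with TNF. The lowest TNF array lay just above the highest control array. The difference was 0.72 (SE 0.24, 95% interval 0.17 to 1.28, n = 3 per group), with a limma adjusted p of 0.138. The pairs differed by 0.84, 0.65 and 0.68, and the block made Cspg5 pass as higher (adjusted p = 0.000995). Array weights also gave a call (adjusted p = 0.0475).

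Tenascin-C, the product of Tnc, is a hexameric glycoprotein of progenitor niches and injured tissue that binds lecticans and integrins. Tnc signals were 10.86, 11.69 and 11.68 in controls and 11.48, 12.07 and 11.96 with TNF. TNF 1 lay below controls 2 and 3, so the groups overlapped. The difference was 0.43 (SE 0.26, 95% interval -0.17 to 1.02, n = 3 per group, limma adjusted p = 0.472). Within pairs it was 0.62, 0.38 and 0.27, and the block made Tnc pass as higher (adjusted p = 0.0171). Without control 1 the difference was 0.15.

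Tenascin-R, the product of Tnr, is made mainly by oligodendrocytes and some neurons. Tnr signals were 7.69, 7.90 and 7.18 in controls and 7.30, 7.94 and 7.09 with TNF. The difference of -0.15 (95% interval -0.75 to 0.45, n = 3 per group, limma adjusted p = 0.903) had pairs of either sign, and with the block the adjusted p was 0.368. Aggrecan, the product of Acan, is the main lectican of cartilage and of perineuronal nets. Acan signals were 5.76, 5.84 and 6.13 in controls and 5.79, 5.72 and 6.30 with TNF, a difference of 0.02 (95% interval -0.40 to 0.44, limma adjusted p = 0.985). Its mean lay below 6.16, the lower quartile of all genes, and no detection calls were used, so the level may be near background.

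Differences between the changes of other pairs of members are given as a description with no test, since the pairs were chosen after the values were seen. The change of Vcan exceeded that of Ncan by 2.22 log2 units (1.97 to 2.68 in single pairs of arrays) and that of Bcan by 1.71 (1.38 to 2.24). The change of Cspg5 exceeded that of Ptprz1 by 1.80 (1.54 to 1.97), and that of Tnc exceeded that of Tnr by 0.57 (0.34 to 1.01).

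The replicates differed among themselves in the same order for several members. In Ncan, Bcan, Vcan, Hapln1, Cspg5, Tnc and Tnr the highest control array was control 2 and the highest TNF array was TNF 2. Ptprz1 and Acan were highest in control 3 and TNF 3. The span over the 3 controls was 2.66 for Hapln1 and 1.95 for Vcan, against 0.31 for Bcan and 0.44 for Ptprz1. Neither the replicate numbers nor the codes shared by arrays of one number are explained in the labels.

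Promoter windows were available for 8 of the 9 members at 9 annotated starts; Cspg5 had none. The motifs searched, on both strands of the 250 bases, were the kappaB consensus bound by NF-kB, the AP-1 site (TGANTCA), and the GC, TATA and CCAAT boxes, none of which overlapped another in the windows shown. The kappaB consensus matched the window of 1 of 8 members, Acan, at -95 to -86 on both strands, and 7.25% of all 32851 windows. The AP-1 site matched none of the members' windows and 6.75% of all windows. The GC box was found for 6 of 8 members (32.7% of all windows), the letters TATAAA for Ncan and Tnc (12.4%) and the CCAAT box for Bcan, Vcan and Acan (33.8%). In Tnc, whose starts are close together, the letters TATAAA lie on the strand of the gene. They are at -126 to -121 from one annotated start and -205 to -200 from the other. The window of the other start also holds TATATAAG closer to the start, which TATAAA does not match. The letters were searched at any position, so a match need not be a working TATA box. Matches describe letters in this window and not binding.

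Other genes of the same matrix were read from lists, beside the 7.20% of all genes that passed in either direction without the block and the 21.5% that passed with it. Those shares include dim genes. Fitted alone, the 9963 genes at or above the median signal gave 890 higher and 837 lower. Among 21 other proteoglycans, link proteins, tenascins and related genes, 4 fell and 1 rose (23.8%; median difference -0.07). Fn1, the adhesive glycoprotein fibronectin, fell by 0.87 (limma adjusted p = 0.0248), Gpc6, a glypican, by 0.76 (0.0405) and Sdc2, a syndecan, by 0.65 (0.00866). Sdc4, another syndecan, rose by 0.55 (0.0405). The fifth call, Gpc4 at -0.53, was named after its values were seen. Cspg4, the NG2 proteoglycan of glial precursors, differed by -0.04. With the block 5 were higher and 5 lower (47.6%), and without replicate 3 there were 0 of either (limma; 3 higher and 5 lower at an unadjusted p under 0.05). Leaving out 1 array lost the call of Sdc4 in 6 of 6 fits, of Gpc6 and Gpc4 in 5 and of Fn1 in 4 (highest adjusted p = 0.128, 0.123, 0.0781 and 0.0834), and of Sdc2 in 0.

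Chondroitin sulfate synthesis and sulfation genes passed in 3 of 26 (11.5%, beside 7.20% of all genes), with 2 higher, 1 lower and a median of -0.05. Of the 26, 19 lay at or above the median signal of all genes. With the filter at that signal 3 were higher and 0 lower. Chst15, which adds a second sulfate to chondroitin sulfate A units and so makes the E form, rose by 1.61 from 7.56, 7.51 and 7.36 to 9.15, 9.10 and 9.00 (3.05-fold, n = 3 per group, limma adjusted p = 0.000177). Dse, an epimerase that turns chondroitin into dermatan sulfate, rose by 1.33 from 8.98, 9.05 and 8.93 to 10.48, 10.26 and 10.21 (2.51-fold, adjusted p = 0.000504). Both calls held in 6 of 6 fits without 1 array. Csgalnact1, which starts the chondroitin chain, fell by 0.86 (adjusted p = 0.0299), a call lost in 4 of those 6 fits (up to adjusted p = 0.118, without control 1). The sulfotransferase genes Chst3 at -0.09 and Chst11 at -0.11 did not pass. The list also holds Arsb (-0.17) and Gusb (0.14), genes of breakdown enzymes, and neither passed in either fit. With the block 4 were higher and 5 lower (34.6%, beside 21.5% of all genes).

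Lectican cleaving proteases and their inhibitors passed in 5 of 17 (29.4%), 4 higher and 1 lower, with a median of 0.00. Adamts4, an aggrecanase that cuts brevican, rose from 6.97, 7.41 and 7.30 to 7.95, 8.38 and 8.22, a difference of 0.96 (1.94-fold, limma adjusted p = 0.0128). Mmp3, the metalloproteinase stromelysin-1, rose by 3.42 (10.67-fold, adjusted p = 0.0077), with TNF 1 at 7.84 below TNF 2 at 10.12 and TNF 3 at 9.61. Timp1, a metalloproteinase inhibitor, rose by 2.46 (adjusted p = 0.000325) and Timp4, its relative, fell by 1.79 (0.00466). Mmp9, at 0.61 (0.0360), was named after its values were seen and lost the call in 5 of 6 fits without 1 array (up to adjusted p = 0.138, without control 1). Adamts5, another aggrecanase, differed by 0.51 (adjusted p = 0.198; 0.0096 with the block) and Timp3 by -0.28 (0.222; 0.0578 with the block). With the block 6 were higher and 3 lower (52.9%), and without replicate 3 there were 2 and 1; Adamts4 and Mmp3 were not called there (adjusted p = 0.101 and 0.105).

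Hyaluronan genes passed in 3 of 11 measured (27.3%), 2 higher and 1 lower, with a median of 0.12. Cd44, the cell surface receptor of hyaluronan, rose by 1.72 (limma adjusted p = 0.000828) and Has2, a hyaluronan synthase, by 0.94 from 5.63, 5.83 and 6.02 to 6.82, 6.73 and 6.75 (0.00471). The Has2 controls lay below 6.16, the lower quartile of all genes, so the size of the Has2 rise is uncertain. Ugdh, which makes the UDP-glucuronate used for hyaluronan and chondroitin, fell by 0.46 (0.0480) and lost the call in 6 of 6 fits without 1 array (up to adjusted p = 0.165, without control 1). With the block 3 were higher and 1 lower (36.4%, beside 21.5% of all genes), and without replicate 3 there were 2 and 0.

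Binding partners and receptors passed in 2 of 24, both lower, with a median of -0.04. That share of 8.33% is near the 7.20% of all genes. Before adjustment 5 were lower and 0 higher at p under 0.05, 20.8% beside 18.9% of all genes. Ptn, which encodes pleiotrophin, a ligand of the Ptprz1 product, fell from 10.49, 10.73 and 10.34 to 8.58, 9.64 and 8.76, a difference of -1.53 (2.88-fold lower, limma adjusted p = 0.0143). The call was lost without control 1 (adjusted p = 0.0567) and in 1 other of the 6 fits without 1 array, without control 2. Ncam1, the neural cell adhesion molecule that neurocan binds, fell by 0.79 (adjusted p = 0.0110). With the block 6 of 24 were lower and 0 higher, beside 21.5% of all genes in either direction, and without replicate 3 none passed (3 lower at an unadjusted p under 0.05), with adjusted p of 0.116 for Ptn and 0.0897 for Ncam1.

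**Figure D4:**
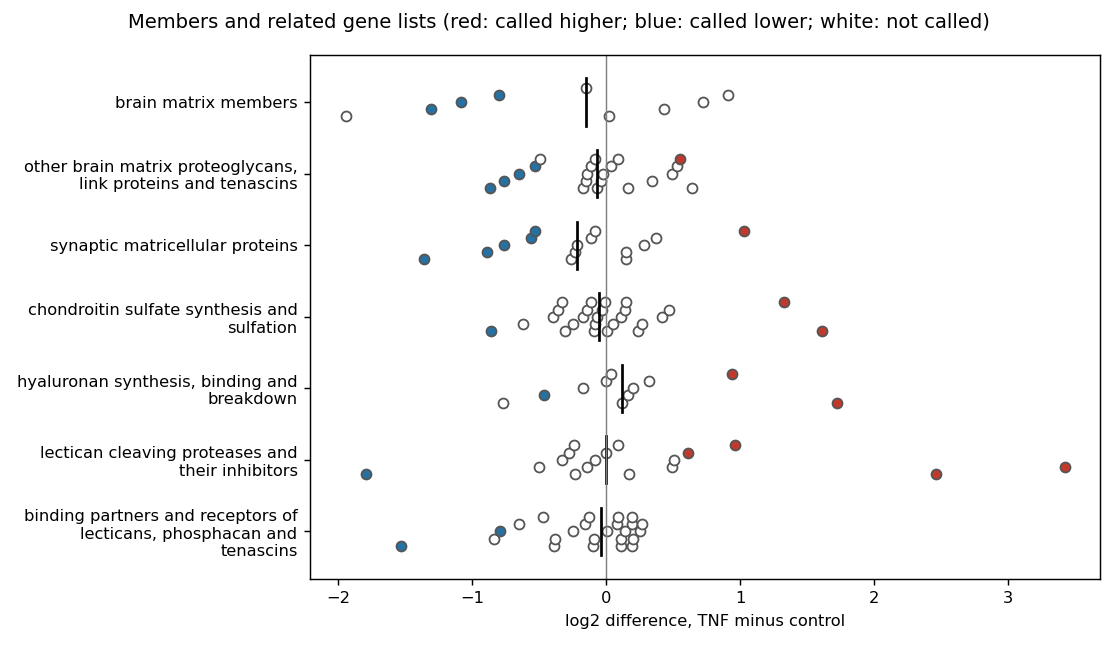
Log2 difference (TNF minus control, horizontal axis) of the 9 members and of the genes of 6 related lists, 1 point per gene, with the list median as a bar. Red points passed as higher and blue as lower without the block. Most points of each list are white, and Mmp3, Timp1, Cd44 and Chst15 lie farthest to the right.

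The cultures carried astrocyte transcripts, with 9 of 10 astrocyte markers above the median signal of all genes; S100b was the exception. Of those markers 3 fell (Glul by 0.88, Aldoc by 1.01 and Gja1 by 1.00) and 0 rose. Of 10 markers of oligodendrocyte precursors, cells that also make several members, Olig1 fell by 1.21, Olig2 by 0.60 and C1ql1 by 1.36 and none rose. Their summed signal (the log2 of the sum of linear signals) was 12.71 to 13.03 in controls and 11.73 to 12.15 with TNF. The defining precursor markers Pdgfra (0.14), Cspg4 (-0.04) and Sox10 (0.07) did not pass in either fit. Of 10 neuron markers Map2 fell by 1.22 and none rose without the block. Their summed signals were 12.56 to 13.03 in controls and 12.21 to 12.46 with TNF. Such sums mostly reflect the brightest genes. These were Stmn2 (mean 12.09 in controls) and Map2 (10.84) for neurons, and Acta2 (13.37) and Tagln (12.63) for fibroblast and mural cells. For precursors they were Olig1 (11.29) and C1ql1 (11.25). The median differences were -0.14 for precursor, -0.05 for neuron and -0.01 for fibroblast and mural markers. Most other marker lists were dimmer than the astrocyte list. At or above the median signal lay 0 of 10 endothelial, 1 of 9 oligodendrocyte and 1 of 9 microglia markers. For precursor, neuron, ependymal and fibroblast and mural markers it was 4, 3, 4 and 5 of 10. Without the block, neither microglia markers (9 measured, summed signal 9.62 to 10.75 and 9.63 to 10.75) nor oligodendrocyte markers (9 measured, 10.96 to 11.52 and 11.02 to 11.18) had a call. Among 10 fibroblast and mural markers Acta2 fell by 0.96 (summed signal 14.08 to 14.32 and 12.88 to 13.59), among 10 endothelial markers Kdr fell by 0.91 (9.81 to 10.05 and 9.64 to 10.11), and none of 10 ependymal markers passed (11.01 to 12.05 and 11.02 to 11.46). Olig2 was no longer called in 5 of 6 fits that dropped an array (adjusted p up to 0.0966, with control 3 dropped), and C1ql1 (0.123, without control 1), Gja1 (0.0572, without TNF 2) and Acta2 (0.0632, without control 2) in 3 each. With the block the calls were 6 lower and 2 higher among astrocyte markers, 4 lower among precursor markers, 2 lower and 1 higher among neuron markers, 3 lower among fibroblast and mural markers, 6 lower among ependymal markers and 1 higher among microglia markers. The part of other cells in the members' differences was not tested, and in bulk cultures fewer cells of a type and less RNA per cell cannot be told apart.

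The genes most like the called members over the 6 arrays were sought among 9957 other genes at or above the median signal. For Ncan they were Abr (r = 0.995) and Atp6v1a (0.995), for Bcan Cnn2 (0.998) and Flna (0.996), and for Ptprz1 Rcn2 (0.997) and Copz2 (0.996). These are correlations over 6 points that lie in 2 groups and share arrays, and they are given as a description. Of these genes Cnn2 (-0.83), Rcn2 (-0.64) and Copz2 (-0.45) fell, while Abr (-0.23), Atp6v1a (-0.25) and Flna (-0.52) did not pass. Leaving out 1 array lost the call of Copz2 in 6 of 6 fits, of Rcn2 in 4 and of Cnn2 in 3 (highest adjusted p = 0.152, 0.0617 and 0.0859, without control 3, TNF 2 and control 2).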

How the data were processed

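The submitters deposited log2 signals for 35544 probe sets on 6 arrays; per the submitters' processing notes RMA (background correction, quantile normalization and probe summary) and limma were used, in versions that are not given. That the scale is log2 was inferred from its range, 2.04 to 14.37. RMA understates large ratios and cannot go below a floor for weak signals. Probe sets with exactly 1 symbol in the platform annotation (21777; 1621 had several and 12146 none) were kept, and the one with the highest mean was used per gene, which left 19926 genes.

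TNF was compared with control with lmFit and eBayes of limma 3.58.1 under R 4.3.3, two-sided and without a block; calls had a p under 0.05 after Benjamini-Hochberg adjustment over all genes. Residual degrees of freedom were 4, and 2 with the block. The pairing by replicate number rests on the same-number correlations given with the arrays; the codes that same-number arrays share in the labels are not explained. The deposited table was prepared with Python 3.11.15 and pandas 2.3.3, and the scripts were tested on simulated data. The 9 members, the 6 gene lists and the marker lists were chosen with earlier results of these data known. Named genes were the members, up to 4 called genes per list by size, a fixed set of 10 and the genes most like each called member. Further genes, such as Lgi1, Arsb, Gusb and single cell type markers, were named after their values were seen. Hyal1 and Tmem2 were not analysed here. No genome was used; promoter windows and gene order came from RefSeq tables (GRCm38.p6), and the motifs were chosen after the values were seen, from a wider set looked at first. A stricter kappaB pattern, which matched no member, was replaced by the consensus.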

Additional observations from a re-analysis of the deposited data

How the results depend on the processing

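All members kept their direction in the alternatives run except Acan and Tnr, the 2 nearest to 0. Acan was 0.02 as reported, -0.07 with array weights, -0.05 without replicate 3 and -0.16 to 0.13 without 1 array; Tnr was -0.15, 0.02 with array weights and -0.40 to 0.03 without 1 array. The count of members called lower, 3 as reported, was 1 at an adjusted p under 0.01, 1 with all probe sets tested (Ncan 0.103 and Bcan 0.0532 as adjusted p), 1 without replicate 3 and 1 to 3 without 1 array. Array weights also lost Ncan (adjusted p = 0.0793). Among the fits without 1 array, the count of members called lower was 3 without control 1 or TNF 2. It was 2 without TNF 3, and 1 without control 2, control 3 or TNF 1. A fit with fewer arrays has less power. The causes of the losses with fewer arrays, all probe sets or array weights were not tested. The count of members called higher, 0 as reported, was 1 with array weights and 3 with the replicate block, and 0 in each fit without 1 array. The block leaves every difference as it was, and the replicate block gave 4 members lower. Median centring, quantile normalization, the filter at the lower quartile of signal, the highest-variance probe set and trend with robust variance kept all calls among the members; filters removed Acan, and the median filter also Hapln1 and Tnr, so no median over all 9 was formed there.

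Over all genes 771 were higher and 663 lower, with 365 to 1938 and 195 to 2351 over the alternatives. In the lists the reported counts and their ranges were 1 (0 to 5) higher and 4 (0 to 5) lower for other proteoglycans, 1 (0 to 2) and 5 (0 to 5) for matricellular proteins, 2 (2 to 4) and 1 (0 to 5) for chondroitin sulfate synthesis, 2 (1 to 3) and 1 (0 to 1) for hyaluronan, 4 (2 to 6) and 1 (1 to 3) for proteases, and 0 (0 to 0) and 2 (0 to 6) for binding partners. The number of arrays limits precision, and dim signals such as those of Acan, and of Hapln1 with TNF, may be limited by background.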

Other observations

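Secreted and surface proteins with known roles at synapses were read as the sixth list. Of 15 measured, 5 fell and 1 rose (40.0%, beside 7.20% of all genes), with a median difference of -0.22. C1ql1, a synapse organiser of the C1q family, fell by 1.36 from 11.37, 11.55 and 10.83 to 10.09, 10.32 and 9.25 (n = 3 per group, limma adjusted p = 0.0338). Sparcl1, the synaptogenic astrocyte protein hevin, fell by 0.89 from 11.06, 10.85 and 10.65 to 10.06, 10.11 and 9.71 (adjusted p = 0.0145). The glypican genes Gpc6 and Gpc4, already counted with the proteoglycans, and Lgi1 made up the rest of the falls. C1ql1 was also counted among the oligodendrocyte precursor markers. Lgi1 was dim, with means of 5.45 in controls and 4.88 with TNF, below 6.16, the lower quartile of all genes. Gpc6, Gpc4 and Lgi1 each kept the call in only 1 of 6 fits without 1 array. Thbs2, a thrombospondin, rose by 1.03 from 8.38, 8.96 and 8.08 to 9.48, 9.84 and 9.21 (adjusted p = 0.0477). Sparcl1 kept its call in 5 of 6 fits without 1 array (lost without control 1, adjusted p = 0.0608), C1ql1 in 3 (highest 0.123, without control 1) and Thbs2 in 2 (highest 0.159, without control 1). Without replicate 3 there were 2 lower and 0 higher, without control 1 there were 0 of either, and with the block 5 and 2.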
